A study of Homo sapiens with 12 samples.

Results

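The LY6 family proteins of keratinocytes were followed as 8 genes: LY6D, LY6E, LY6K, LYPD3, LYPD5, PSCA, LYNX1 and SLURP1. They were the rows of the deposited gene table whose Ensembl IDs map to these symbols, 8 of 20738 genes, and all 8 were found. The set was selected on the readout, since a large rise of LY6D with JQ1 in UPCI-SCC-090 was part of how it was chosen. For the 8 genes, the JQ1 response in UPCI-SCC-090 and its difference from the response in UM-SCC-47 are therefore given as a description, with no test, as are the values of LY6D between the lines. The JQ1 response in UM-SCC-47 and the levels of the other members between the lines were tested, except those of LYNX1, which passed the filter on low counts through UM-SCC-47 only. The difference of LYPD3 between the lines with JQ1 is also a description, as it restates in large part its JQ1 responses.

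LY6 family proteins are short and rich in cysteines, which fold them into a compact domain shared with the receptor of urokinase (uPAR, gene PLAUR). Most are held on the outer face of the cell membrane by a glycosylphosphatidylinositol (GPI) anchor, a lipid attached in the endoplasmic reticulum, whereas a few, such as SLURP1, are secreted. In stratified squamous epithelium several of them are made as keratinocytes leave the basal layer. LY6D, also known as the E48 antigen, and LYPD3, also known as C4.4A, mark suprabasal cells, LYPD5 is found in the uppermost living layers, and SLURP1 and LYNX1 are ligands or modulators of nicotinic acetylcholine receptors.

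Total RNA was sequenced from UPCI-SCC-090 and UM-SCC-47, established cell lines of squamous carcinoma of the head and neck (HNSCC) that carry human papillomavirus (HPV). Each line was treated for 72 h with 500 nM JQ1, an inhibitor of the BET bromodomain proteins, or with 0.1% DMSO, its solvent. The 4 groups were UPCI-SCC-090 with JQ1, UPCI-SCC-090 with DMSO, UM-SCC-47 with JQ1 and UM-SCC-47 with DMSO, with 3 libraries each and 12 in all. Each group stands for 1 cell line in culture, both lines carry HPV, and the labels do not say whether the repeats were separate cultures, so that p-values measure the spread between these libraries only.

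Total estimated counts were 20349275 to 30788657 per library. All 14 squamous epithelium markers had a count in every library, with summed levels of 17748 to 27636 CPM (counts relative to the scaled library total) in UPCI-SCC-090 with JQ1, 8899 to 11402 CPM with DMSO, 4171 to 4639 CPM in UM-SCC-47 with JQ1 and 4219 to 4271 CPM with DMSO. Of 9 fibroblast markers, 6 were at 0 in every JQ1 library and 3 in every DMSO library of UPCI-SCC-090, and 4 and 1 in those of UM-SCC-47. Their summed level was 2.80 to 5.62 CPM with JQ1 and 20.4 to 30.7 CPM with DMSO in UPCI-SCC-090, and 5.45 to 6.65 CPM with JQ1 and 13.1 to 15.3 CPM with DMSO in UM-SCC-47. The sum of 10 leukocyte markers was 6.6 to 44.2 CPM over all libraries, and the fibroblast marker THY1 and the lymphocyte markers CD3D and MS4A1 were at 0 in all 12 libraries. The part of these RNAs in the results below was not tested. Libraries also differed in how their counts depended on the GC content of genes. The slope was taken against the mean of the libraries of the same line, so it does not measure a GC offset between the lines. It was −0.75, 0.45 and −0.21 log2 units per 10 points of GC in JQ1 replicates 3, 2 and 1 of UPCI-SCC-090, and 0.68, 0.12 and −0.29 in DMSO replicates 2, 3 and 1. In UM-SCC-47 it was −0.53 in JQ1 replicate 3 and −0.02 to 0.24 in the other libraries. This bears on the family, because 6 of the 8 genes have a GC content of 61.2% to 63.9%, against 51.4% for LY6K and 48.6% for LYPD5. Results are therefore given also after correction of each library for this trend where that changed them.

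Levels are CPM after scaling of the 12 libraries by the trimmed mean of M values (TMM). Log2 fold changes come from edgeR fits, within each line for JQ1 over DMSO, and are given with their standard error. The scaling within a line moved the log2 difference between JQ1 and DMSO libraries by −0.11 in UPCI-SCC-090 and −0.01 in UM-SCC-47 from that over all 12 libraries. A gene was called where its p, adjusted by Benjamini-Hochberg over all genes tested, was under 0.05. Of the 8 members, 6 passed the filter on low counts in UPCI-SCC-090, 7 in UM-SCC-47 and 7 over the 12 libraries.

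**Figure D1:**
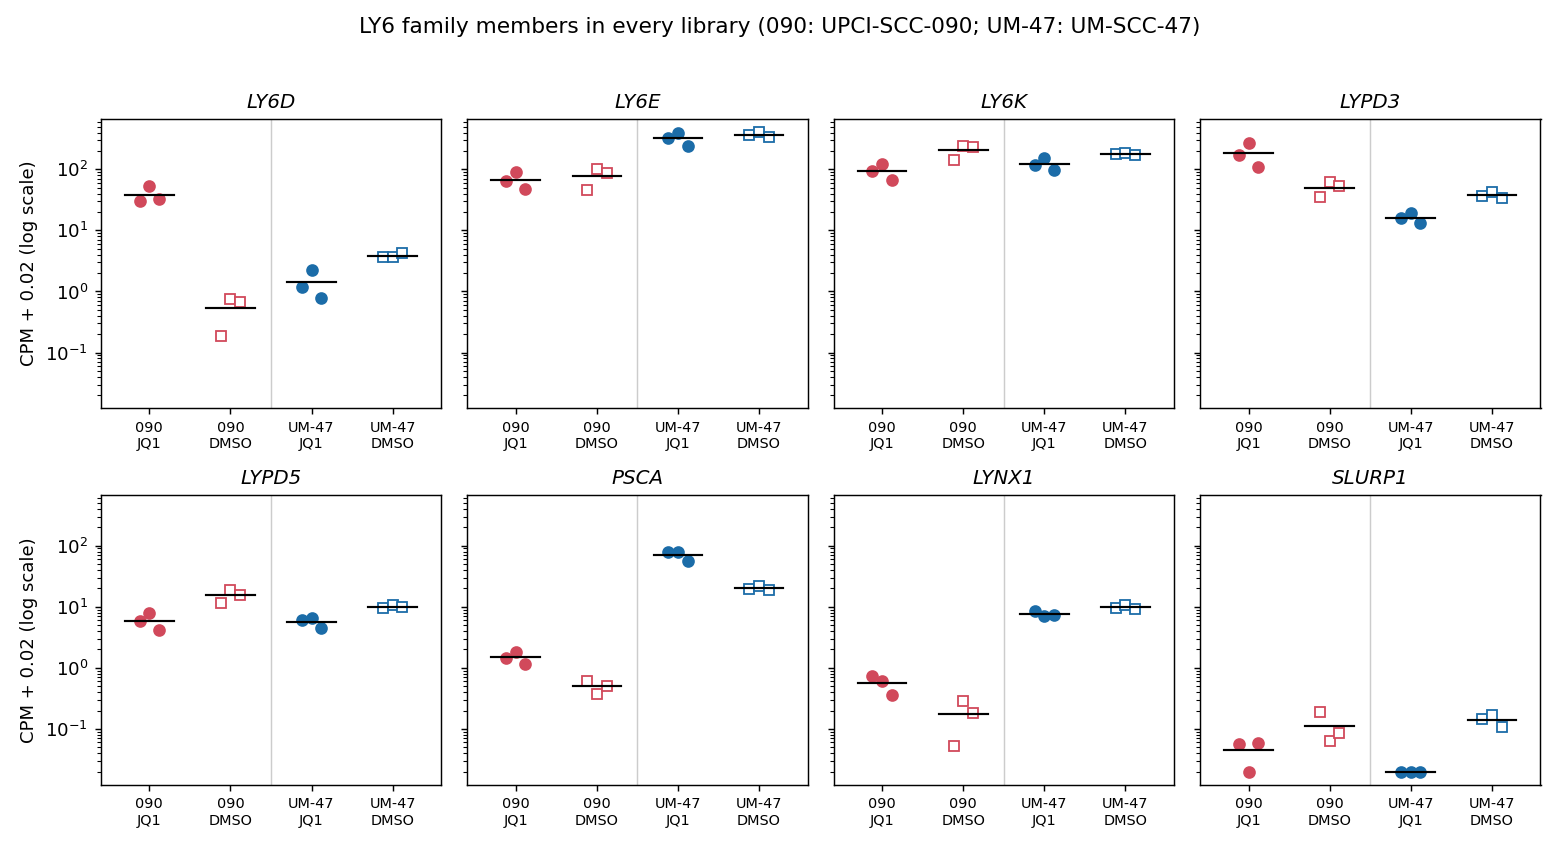
Each point is the level of a gene in a library, in CPM plus 0.02 on a log scale, and the black line is the mean of the 3 libraries of a group. LY6D stood at 30.0 to 52.8 CPM in UPCI-SCC-090 with JQ1 and under 1 CPM with DMSO, while in UM-SCC-47 every JQ1 library was below every DMSO library.

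LY6D is the gene on which the set was chosen. Its level in UPCI-SCC-090 was 30.0, 52.8 and 32.3 CPM with JQ1 (825, 1090 and 841 counts), against 0.166, 0.744 and 0.646 CPM with DMSO (5, 17 and 20 counts). The groups were far apart, and DMSO replicate 1 was the lowest of the 12 libraries. The log2 fold change was 6.10 ± 0.62, a ratio of 68.5, and ranked 11 from the largest rise among 13150 genes tested. LY6D passed the filter in this line through its JQ1 libraries only. In these bulk samples, more cells with the transcript and more transcript per cell cannot be told apart. After GC correction the value was 7.03, and over all 16 alternative settings it was 5.69 to 7.09.

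In UM-SCC-47 LY6D went the other way. Its level was 1.15, 2.25 and 0.758 CPM with JQ1 (31, 40 and 15 counts), against 3.6, 3.65 and 4.19 CPM with DMSO (113, 97 and 96 counts). All JQ1 libraries were below all DMSO libraries, although the JQ1 libraries differed among themselves by more than the DMSO libraries. LY6D fell by 1.48 on the log2 scale (SE 0.39, edgeR's adjusted p = 0.024). The call was lost without DMSO replicate 1, 2 or 3 or JQ1 replicate 1 (adjusted p = 0.066, 0.064, 0.077 and 0.09). It was also lost with GC correction and replicate block (0.054) and in a fit of all 12 libraries (0.051). The log2 fold change stayed between −1.98 and −1.07 in all 16 alternatives. The difference of the JQ1 responses, UPCI-SCC-090 minus UM-SCC-47, was 7.67 ± 0.77 on the log2 scale.

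The order of the LY6D levels thus differed between the lines. UPCI-SCC-090 with JQ1 had the most (38.3 ± 12.5 CPM, SD, n = 3), followed by UM-SCC-47 with DMSO (3.81 ± 0.33 CPM), UM-SCC-47 with JQ1 (1.39 ± 0.77 CPM) and UPCI-SCC-090 with DMSO (0.519 ± 0.309 CPM). No neighbours in this order overlapped. Between the lines the log2 fold change of UPCI-SCC-090 over UM-SCC-47 was 4.79 with JQ1, and 4.13 without JQ1 replicate 3 of UM-SCC-47, and −2.88 with DMSO.

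LYPD3 shared this opposite direction. LYPD3, a membrane protein with a pair of LY6 domains, is made in suprabasal keratinocytes and binds laminins and the secreted protein AGR2. Its level in UPCI-SCC-090 was 172, 270 and 111 CPM with JQ1, against 34.7, 62.0 and 52.7 CPM with DMSO. The JQ1 libraries were all above the DMSO libraries and spread over more than 2-fold, with replicate 3 lowest. The log2 fold change was 1.75 ± 0.32, and 2.56 after GC correction.

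In UM-SCC-47 the level of LYPD3 was 15.7, 19 and 13.2 CPM with JQ1, against 37.0, 42.2 and 33.9 CPM with DMSO. The groups did not overlap, and LYPD3 fell by 1.25 on the log2 scale (SE 0.19, edgeR's adjusted p = 0.0029). This call held in all 16 alternatives, with log2 fold changes of −1.51 to −0.90 and adjusted p of 0.00045 to 0.018. The difference of the responses between the lines was 3.13 ± 0.46 log2 units. With JQ1 the log2 fold change of LYPD3 in UPCI-SCC-090 over UM-SCC-47 was 3.53 ± 0.35. This value restates in large part the opposite JQ1 responses and is a description with no test. With DMSO the lines were not told apart, at 49.8 ± 13.9 CPM in UPCI-SCC-090 and 37.7 ± 4.2 CPM in UM-SCC-47 (SD, n = 3 each; log2 fold change 0.40 ± 0.32, edgeR's adjusted p = 0.34).

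LYPD5, or haldisin, lies in the same gene cluster as LYPD3, with other genes between them, but was lower with JQ1 in both lines. In UPCI-SCC-090 its level was 5.74, 7.79 and 4.10 CPM with JQ1, against 11.3, 18.8 and 15.8 CPM with DMSO, with no overlap and a log2 fold change of −1.51 ± 0.32. In UM-SCC-47 it was 6.13, 6.58 and 4.40 CPM with JQ1, against 9.54, 10.5 and 9.82 CPM with DMSO. LYPD5 fell by 0.82 on the log2 scale in UM-SCC-47 (SE 0.20, edgeR's adjusted p = 0.02). The call was lost without DMSO replicate 1, 2 or 3 or JQ1 replicate 1 or 3 (adjusted p = 0.066, 0.067, 0.069, 0.055 and 0.058), with DESeq2 (0.066), with the size factors of DESeq2 in edgeR (0.059) and in a fit of all 12 libraries (0.078). The direction was lower in all 16 alternatives of each line. With JQ1 the lines were not told apart, at 5.88 ± 1.85 CPM in UPCI-SCC-090 and 5.70 ± 1.15 CPM in UM-SCC-47 (SD, n = 3 each; log2 fold change 0.04 ± 0.31, edgeR's adjusted p = 0.93). With DMSO all 3 libraries of UPCI-SCC-090 were above those of UM-SCC-47, but the log2 fold change of 0.62 ± 0.31 missed the threshold (adjusted p = 0.12, and 0.035 after GC correction).

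The promoter windows of LYPD3 and LYPD5 are shown because these genes of the same cluster had opposite JQ1 values in UPCI-SCC-090 and the same direction in UM-SCC-47. They are RefSeq sequences of build GRCh38.p14, from 250 bases before to 50 after the gene's start in RefSeq. They are written 5′ to 3′ on the minus strand that carries both genes, at chr19:43465559-43465858 and chr19:43802398-43802697. For LYPD5 this start lies inside the GENCODE gene span given below for GRCh37, not at its 5′ end, and other starts were not examined. Capitals mark matches, on either strand, to the GC box GGGCGG or the CACCC box CACCC.
LYPD3: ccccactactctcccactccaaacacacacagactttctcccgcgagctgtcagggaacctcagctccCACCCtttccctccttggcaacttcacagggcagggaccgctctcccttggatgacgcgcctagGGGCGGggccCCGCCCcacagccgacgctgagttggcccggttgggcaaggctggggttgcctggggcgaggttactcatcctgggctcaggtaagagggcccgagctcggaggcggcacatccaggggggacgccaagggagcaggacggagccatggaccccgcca
LYPD5: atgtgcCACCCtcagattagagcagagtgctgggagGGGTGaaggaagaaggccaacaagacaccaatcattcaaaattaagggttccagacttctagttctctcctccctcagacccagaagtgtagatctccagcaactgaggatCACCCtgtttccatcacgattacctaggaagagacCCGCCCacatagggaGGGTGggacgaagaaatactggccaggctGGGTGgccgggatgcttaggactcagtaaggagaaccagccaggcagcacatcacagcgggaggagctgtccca
The LYPD3 window held 2 GC boxes, 118 and 108 bases before the start, and 1 CACCC box, and had a GC content of 67%. The LYPD5 window held 1 GC box, 68 bases before the start, and 5 CACCC boxes, with a GC content of 54%, against a median of 58.7% over all windows. No marked matches overlapped each other. Of 35116 windows of this length, 45% held a GC box and 59.9% a CACCC box, so that these matches are common. The letters TGANTCA (the AP-1 element, in 7.71% of windows), CACGTG (the E-box, in 7.26%) and TATAAA (the TATA box, in 11.5%) were not in the windows of LYPD3 and LYPD5.

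PSCA, the prostate stem cell antigen, is a GPI-anchored protein of several epithelia and was the member higher with JQ1 in both lines. In UPCI-SCC-090 PSCA was scarce, at 1.45, 1.79 and 1.15 CPM with JQ1 (40, 37 and 30 counts), against 0.599, 0.350 and 0.484 CPM with DMSO (18, 8 and 15 counts). The groups did not overlap, and the log2 fold change was 1.46 ± 0.33, with a range of 1.24 to 2.34 over the alternatives. PSCA passed the filter in UPCI-SCC-090 through its JQ1 libraries only. In UM-SCC-47 its level was 78.0, 79.2 and 56.9 CPM with JQ1, against 19.2, 21.6 and 19 CPM with DMSO. The groups were well apart, and PSCA rose by a log2 fold change of 1.83 ± 0.17 (edgeR's adjusted p = 0.00057), rank 284 from the largest rise among 13440 genes. The call held in all 16 alternatives, with log2 fold changes of 1.57 to 2.18 and no adjusted p above 0.0064.

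The line difference of PSCA was far larger than its response. Its log2 fold change of UPCI-SCC-090 over UM-SCC-47 was −5.61 ± 0.32 with JQ1 (edgeR's adjusted p = 1.4e-07) and −5.36 ± 0.32 with DMSO (edgeR's adjusted p = 2.4e-07). Every library of UPCI-SCC-090 was below every library of UM-SCC-47, whatever the treatment.

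LY6K, a GPI-anchored protein known from testis and from squamous carcinomas, was lower with JQ1 in each line. In UPCI-SCC-090 its level was 94.9, 122 and 66.4 CPM with JQ1, against 141, 245 and 228 CPM with DMSO, with a log2 fold change of −1.24 ± 0.26 and no overlap. In UM-SCC-47 it was 119, 151 and 96.2 CPM with JQ1, against 176, 187 and 169 CPM with DMSO. LY6K fell by 0.55 on the log2 scale in UM-SCC-47 (SE 0.18, edgeR's adjusted p = 0.048). This call was close to the threshold and was kept in 3 of 16 alternatives: it was lost without DMSO replicate 1, 2 or 3 or JQ1 replicate 1 or 3 (adjusted p = 0.13, 0.14, 0.11, 0.14 and 0.24), after GC correction (0.057), with DESeq2 (0.3) and with every other alternative but library size scaling, the replicate block and leaving out JQ1 replicate 2. The log2 fold change in the alternatives was −0.81 to −0.27.

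The levels of LY6K were not told apart between the lines. With JQ1 the means were 94.5 ± 27.9 CPM in UPCI-SCC-090 and 122 ± 27.7 CPM in UM-SCC-47, and with DMSO 205 ± 55.8 and 177 ± 8.8 CPM (SD, n = 3 each). The log2 fold changes between the lines were −0.37 ± 0.27 with JQ1 (edgeR's adjusted p = 0.31) and 0.21 ± 0.27 with DMSO (adjusted p = 0.58). The value with JQ1 passed after GC correction (log2 fold change −0.50, adjusted p = 0.013), without JQ1 replicate 3 of UM-SCC-47 (−0.90, 0.01) and without DMSO replicate 1 or 3 of UPCI-SCC-090 (−0.71 each, 0.02 and 0.045).

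LY6E, an interferon-induced protein that limits the entry of some viruses, was the most abundant member per length in UM-SCC-47 and differed between the lines, while its JQ1 response in UM-SCC-47 did not pass. Its level in UPCI-SCC-090 was 65.1, 89.4 and 48.4 CPM with JQ1, against 46.6, 101 and 86.1 CPM with DMSO, and the groups overlapped (log2 fold change −0.32 ± 0.32). This direction depended on the processing: after GC correction the log2 fold change was 0.69, and without the libraries of the steepest GC trends it was 0.27. In UM-SCC-47 the level was 328, 390 and 243 CPM with JQ1, against 362, 410 and 340 CPM with DMSO, and the log2 fold change of −0.22 ± 0.19 missed the threshold (edgeR's adjusted p = 0.38) and lay between −0.48 and 0.16 in the alternatives. LY6E was lower in UPCI-SCC-090 than it was in UM-SCC-47, by log2 fold changes of −2.24 ± 0.32 with JQ1 and −2.25 ± 0.32 with DMSO (edgeR's adjusted p = 0.00014 each), and no library of UPCI-SCC-090 reached the level of UM-SCC-47.

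LYNX1 modulates nicotinic acetylcholine receptors in neurons. The annotation places a read-through of LYNX1 with the SLURP2 gene on the same strand, so reads of SLURP2 in this row cannot be told apart from those of LYNX1. In UPCI-SCC-090 the counts were 20, 12 and 9 with JQ1, against 1, 6 and 5 with DMSO, too few for the filter, so no fold change was fitted within the line. In UM-SCC-47 its level was 8.36, 6.97 and 7.23 CPM with JQ1, against 9.60, 10.6 and 9.25 CPM with DMSO. The groups did not overlap, but at a log2 fold change of −0.40 ± 0.17 LYNX1 missed the threshold (edgeR's adjusted p = 0.1). It passed with library size scaling only (−0.64, adjusted p = 0.028) and was near 0 at its highest among the alternatives. Over the 12 libraries LYNX1 passed the filter through UM-SCC-47 only and so had to be lower in UPCI-SCC-090. Its log2 fold change of UPCI-SCC-090 over UM-SCC-47 was −3.76 ± 0.45 with JQ1 and −6.01 ± 0.52 with DMSO, given as a description with no test. The difference of the JQ1 responses was 2.26 ± 0.64 log2 units, with a range of 1.67, without DMSO replicate 1 of UPCI-SCC-090, to 3.08.

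SLURP1, a secreted protein whose loss causes the palmoplantar skin disease mal de Meleda, was barely detected. Its counts in UPCI-SCC-090 were 1, 0 and 1 with JQ1, against 5, 1 and 2 with DMSO. In UM-SCC-47 they were 0, 0 and 0 with JQ1, which allows a level of up to 0.0465 CPM over the group (3 counts), against 4, 4 and 2 with DMSO. SLURP1 never passed the filter, and no change can be read at this depth.

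Counted together in UPCI-SCC-090, the fit called 3 of the 6 members tested higher (LY6D, LYPD3 and PSCA) and 2 lower (LY6K and LYPD5), beside 7.67% and 20.4% of 13150 genes. Over all genes 1009 were called higher and 2680 lower, against 1504 and 1980 with DESeq2, 1287 and 1755 with the size factors of DESeq2 in edgeR, 3338 and 3124 after GC correction and 635 and 3069 with library size scaling only. The size factors of DESeq2 moved the median log2 fold change of all genes by 0.28 in this line and by 0.15 in UM-SCC-47, library size scaling by −0.24 and −0.25, and GC correction by 0.22 and 0.10. The 3 and 2 members were also those with no overlap between the groups, beside 16.1% of all genes with every JQ1 library above and 24.4% with every JQ1 library below every DMSO library. As these contrasts chose the set, nothing is read from the counts.

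In UM-SCC-47, 1 of the 7 members tested was called higher (PSCA) and 4 were called lower (LY6D, LY6K, LYPD3 and LYPD5), where 16.1% of the 13440 genes tested were called higher and 25.5% lower. The split over all genes was 2163 higher and 3431 lower, against 2855 and 2786 with DESeq2, 3525 and 3356 after GC correction and 1456 and 4589 with library size scaling only. Of these 7 members, 1 had every JQ1 library above every DMSO library and 5 had every JQ1 library below, against 22.8% and 32.5% of all genes tested. The median log2 fold change of the members was −0.55, and that of all genes −0.03. The 4 lower calls became 1 to 4 when a single library was left out and were 2 with DESeq2, as LY6D, LY6K and LYPD5 lay close to the threshold. The direction of the 5 called members in UM-SCC-47 did not change in any of the 16 alternatives.

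For the difference of the JQ1 responses between the lines the fit called 2 of 7 members, LY6D and LYPD3, both with the higher response in UPCI-SCC-090, beside 2.93% of 14396 genes, and 0 members with the lower response, beside 3.63% (edgeR, with 0 at an unadjusted p under 0.05 and 0 with DESeq2). Since LY6D chose the set in this contrast, nothing is read from these counts either.

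Between the lines with JQ1, 2 of the 7 members were called higher in UPCI-SCC-090 (LY6D and LYPD3), where 24% of genes were, and 3 lower (LY6E, PSCA and LYNX1), where 20.9% were. With DMSO, 0 were called higher by edgeR (0 at an unadjusted p under 0.05, 0 with DESeq2), where 23.3% of genes were, and 4 lower (LY6D, LY6E, PSCA and LYNX1), where 19.9% were. The higher call with DMSO was 1 after GC correction, from LYPD5. LY6D and LYNX1 are in these counts although LY6D was chosen for its JQ1 response and LYNX1 had to be lower. Nothing is read from their calls, nor from that of LYPD3 with JQ1, which restates in large part its JQ1 responses.

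Per length of the exons, in CPM per kilobase, the order of the members was not the same in the lines. In UPCI-SCC-090 with JQ1 it was LYPD3 (74.7), LY6E and LY6D (25.6 each), LY6K (23.3), LYPD5 (1.10), PSCA (0.831), LYNX1 (0.110) and SLURP1 (0.0473). With DMSO in the same line, LY6K was first (50.6), before LY6E (29.5), LYPD3 (20.2) and LYPD5 (2.88), with LY6D at 0.346. In UM-SCC-47 with JQ1, LY6E was first (121), before PSCA (40.5), LY6K (30.2) and LYPD3 (6.47), with LY6D at 0.925. With DMSO in UM-SCC-47 the leading genes were LY6E (141), LY6K (43.8), LYPD3 (15.3) and PSCA (11.3), with LY6D at 2.55. These levels use the union of all annotated exons, which is longest for LYPD5, LYNX1 and LY6K (5329, 5020 and 4049 bases), so genes that use a part of it are set too low.

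Other genes of the LY6/uPAR family moved in both directions. Of 25 on the list, 22 were in the table, and most were too low to test. In UPCI-SCC-090, 1 of 9 tested was called higher and 4 lower, beside 7.67% and 20.4% of all genes, and in UM-SCC-47, 1 of 10 was called higher and 6 lower, beside 16.1% and 25.5%. The higher gene was CD59 in each line. CD59 is a GPI-anchored inhibitor of the complement membrane attack complex. In UPCI-SCC-090 it was at 391, 268 and 331 CPM with JQ1, against 50.02, 41.0 and 56.4 CPM with DMSO (log2 fold change 2.65 ± 0.28, edgeR's adjusted p = 0.0037). In UM-SCC-47 it was at 1071, 1484 and 1141 CPM with JQ1, against 490, 408 and 469 CPM with DMSO (log2 fold change 1.42 ± 0.17, edgeR's adjusted p = 0.0012). Both calls held in all 16 alternatives. The larger response of CD59 in UPCI-SCC-090 (difference 1.31 ± 0.29 log2 units, edgeR's adjusted p = 0.021) was kept in 12 of 21 alternatives, and the call was lost when any of 8 of the 12 libraries was left out, with adjusted p up to 0.13.

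Among the lower genes, LY6G5B and LY6G5C were lower in both lines. The log2 fold change of LY6G5B was −4.50 ± 0.73 in UPCI-SCC-090 and −2.28 ± 0.51 in UM-SCC-47, and that of LY6G5C was −2.62 ± 0.46 and −2.27 ± 0.38. In each line LY6G5B and LY6G5C passed the filter through their DMSO libraries only, which by itself favours lower values with JQ1. Their values are therefore a description with no test, and nothing is read from their calls in the counts above. These genes were low, with means of at most 2.77 CPM. PLAUR, the uPAR gene, fell in UPCI-SCC-090, with a mean of 2.01 CPM with JQ1, against 4.73 CPM with DMSO (log2 fold change −1.37 ± 0.33, edgeR's adjusted p = 0.024). In UM-SCC-47 PLAUR had 20.4 CPM with JQ1, against 20.1 CPM with DMSO (0.01 ± 0.20, adjusted p = 0.98). The call in UPCI-SCC-090 was lost in 10 of 16 alternatives, among them leaving out any library but JQ1 replicate 2, with adjusted p up to 0.29, and the difference between the lines did not pass (−1.26, adjusted p = 0.13).

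LYPD1 and LYPD2 were called lower in UM-SCC-47, with log2 fold changes of −1.18 ± 0.26 and −1.87 ± 0.25 (edgeR's adjusted p = 0.012 and 0.002). LY6G6C was called lower there with −0.91 ± 0.22 (adjusted p = 0.017, up to 0.17 in the alternatives, and lost without JQ1 replicate 1 or DMSO replicate 1 or 3). CD177 had −1.98 ± 0.31 in UM-SCC-47. It passed the filter through its DMSO libraries only, so this value is a description with no test, and nothing is read from its call. In UPCI-SCC-090 LYPD1 had 31.8 CPM with JQ1, against 23.0 CPM with DMSO (0.36 ± 0.31, adjusted p = 0.46). LYPD2, the neighbour of SLURP1, had 1, 1 and 2 counts with JQ1 and 0 counts in every DMSO library of UPCI-SCC-090, against 36 to 260 counts in UM-SCC-47. PINLYP, which overlaps XRCC1 on the opposite strand, was lower in UPCI-SCC-090 (−1.56 ± 0.32) at under 1 CPM. It too passed the filter through its DMSO libraries only, so this value is a description with no test. Its call in the counts above, from which nothing is read, was lost without DMSO replicate 2 or 3 or JQ1 replicate 1 or 3. LYPD6 and LYPD6B did not pass in edgeR in either line (adjusted p = 0.32 and 0.11 in UPCI-SCC-090, 0.077 and 0.19 in UM-SCC-47). LYPD6 passed in UM-SCC-47 with DESeq2 (log2 fold change 0.62, adjusted p = 0.017) and with its size factors in edgeR (0.029), and in both lines after GC correction (0.01 in UPCI-SCC-090 and 0.0094 in UM-SCC-47). LYPD6B passed in UM-SCC-47 with library size scaling (0.025) and without JQ1 replicate 2 (0.03), and in UPCI-SCC-090 in the fit of all 12 libraries (0.039) and with GC correction and replicate block (0.043). The log2 fold change of LYPD6 was 0.75 ± 0.49 in UPCI-SCC-090 and 0.46 ± 0.18 in UM-SCC-47, and that of LYPD6B was 0.64 ± 0.25 and −0.35 ± 0.19.

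**Figure D2:**
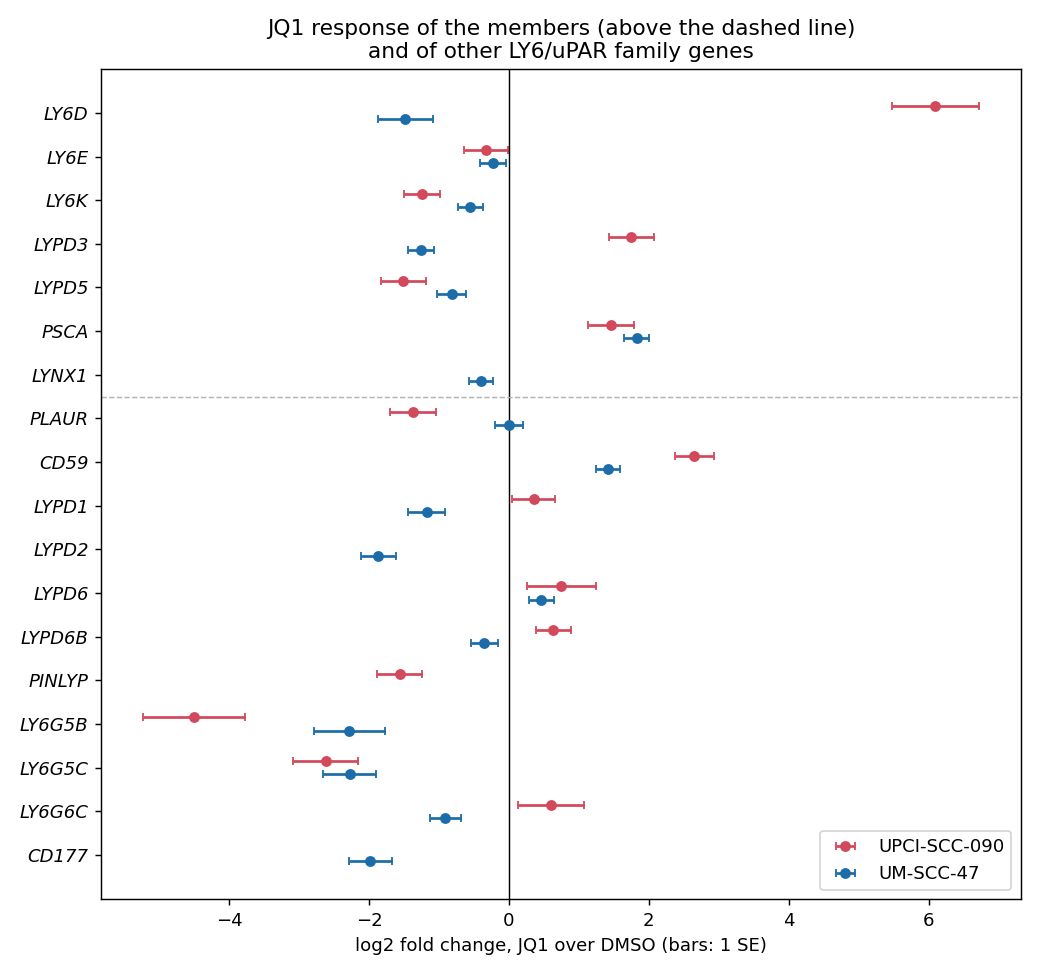
Points are log2 fold changes of JQ1 over DMSO with bars of 1 SE, for UPCI-SCC-090 in red and UM-SCC-47 in blue, with the members above the dashed line and other LY6/uPAR family genes below it. LY6D (6.10 and −1.48) and LYPD3 (1.75 and −1.25) lie on opposite sides of 0 in the lines, while PSCA and CD59 lie above 0 in each.

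The enzymes that make and attach the GPI anchor were read beside the anchored members. Of 21 genes of anchor synthesis and remodelling tested, 4 were called higher and 0 lower by edgeR in UPCI-SCC-090 (0 lower at an unadjusted p under 0.05 and with DESeq2), and 5 higher and 5 lower in UM-SCC-47, beside the same shares of all genes as above. The 4 higher genes were also among the 5 of UM-SCC-47. PIGH, a subunit of the enzyme of the first step, had log2 fold changes of 2.16 ± 0.30 and 1.89 ± 0.19 in UPCI-SCC-090 and UM-SCC-47 (edgeR's adjusted p = 0.0047 and 0.00067). PIGF, which takes part in adding ethanolamine phosphate, had 1.75 ± 0.27 and 1.32 ± 0.19 (adjusted p = 0.0058 and 0.0024). PIGM and PIGX, which act together in adding the first mannose, had 1.42 ± 0.35 and 0.97 ± 0.17 (0.025 and 0.0048) and 1.283 ± 0.375 and 1.06 ± 0.22 (0.046 and 0.011). In UPCI-SCC-090 the calls of PIGM and PIGX were lost in 4 and 7 of 16 alternatives, among them without DMSO replicate 2 or 3 or JQ1 replicate 1, with adjusted p up to 0.1 and 0.15. The genes with the largest falls in UM-SCC-47 were PIGZ (−1.03 ± 0.21, adjusted p = 0.0096), PGAP2 (−0.86), PIGC (−0.83) and MPPE1 (−0.76). The last 3 were called in 11, 6 and 7 of 16 alternatives and were lost when any DMSO library or JQ1 replicate 1 was left out, with adjusted p up to 0.061, 0.2 and 0.083. The median over the list was 0.49 in UPCI-SCC-090 and −0.20 in UM-SCC-47, where the medians of all genes were −0.14 and −0.03. None of the 5 subunits of the GPI transamidase, which joins the anchor to the protein, was called by edgeR in UPCI-SCC-090 (0 also at an unadjusted p under 0.05 and with DESeq2) or in UM-SCC-47 (2 higher at an unadjusted p under 0.05 and 2 with DESeq2). Their log2 fold changes ran from −0.75 to 0.60.

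Known partners of the members were read beside them. Of 9 tested, 1 was called higher and 5 lower in UPCI-SCC-090, where 7.67% and 20.4% of all genes were, and 2 higher and 3 lower in UM-SCC-47, where 16.1% and 25.5% were. The other 3 and 4 partners did not pass. Among the 5 lower in UPCI-SCC-090 was LAMA1, at 0.07 CPM with JQ1, against 0.48 CPM with DMSO. It passed the filter there through its DMSO libraries only, so nothing is read from its call. The integrin subunit ITGB4 and the laminin chain LAMA5 fell in both lines. ITGB4 had log2 fold changes of −3.04 ± 0.45 in UPCI-SCC-090 and −1.37 ± 0.22 in UM-SCC-47 (edgeR's adjusted p = 0.0052 and 0.0035), and LAMA5 had −2.94 ± 0.45 and −1.40 ± 0.15 (adjusted p = 0.0056 and 0.00095). AGR2, the secreted partner of LYPD3, fell in UM-SCC-47, with 1.79 CPM with JQ1, against 11.9 CPM with DMSO (−2.74 ± 0.44, edgeR's adjusted p = 0.0036). The membrane protease MMP14 fell in UPCI-SCC-090 (−1.99 ± 0.34, adjusted p = 0.0079, and 0.062 without JQ1 replicate 1) and rose in UM-SCC-47 (1.29 ± 0.15, adjusted p = 0.0012), and the difference between the lines passed (−3.14 ± 0.48, edgeR's adjusted p = 0.003). PLAU, the urokinase that binds uPAR, rose in UPCI-SCC-090 (2.37 ± 0.35, adjusted p = 0.0051), with a response higher than in UM-SCC-47 by 2.82 ± 0.39 log2 units (edgeR's adjusted p = 0.0017).

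Of the 16 nicotinic receptor subunits, on which SLURP1 and LYNX1 act, 4 were high enough to test in each line. CHRNA7, the subunit to which SLURP1 binds, fell in UPCI-SCC-090, with 8.21 CPM with JQ1, against 39.6 CPM with DMSO (log2 fold change −2.36 ± 0.29, edgeR's adjusted p = 0.0041). In UM-SCC-47 its mean was 0.241 CPM with JQ1, against 0.0859 CPM with DMSO, below the filter. CHRNA5 had 13.5 CPM with JQ1, against 20.03 CPM with DMSO, in UPCI-SCC-090 (−0.66 ± 0.35, edgeR's adjusted p = 0.22). It rose in UM-SCC-47, with 22.1 CPM with JQ1, against 9.999 CPM with DMSO (1.13 ± 0.20, adjusted p = 0.0053). The difference of the CHRNA5 responses passed (−1.71 ± 0.37, edgeR's adjusted p = 0.02) but was lost without any of the 3 DMSO libraries of UM-SCC-47, with adjusted p up to 0.072.

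LY6D and LYPD3 were set beside other suprabasal keratinocyte genes, a list of 29 chosen with earlier results known. In UPCI-SCC-090, 11 of the 17 tested were called higher and 2 lower (all genes, 7.67% and 20.4%), with a median log2 fold change of 1.54 against −0.14 for all genes. In UM-SCC-47, 4 of the 15 tested were called higher and 10 lower (all genes, 16.1% and 25.5%), with a median of −0.98 against −0.03. The keratins KRT13 and KRT4 of the suprabasal oral mucosa, and the calcium-binding protein S100A9, had the same opposite signs as LY6D. KRT13 in UPCI-SCC-090 had 982 CPM with JQ1, against 38.1 CPM with DMSO (log2 fold change 4.56 ± 0.28, edgeR's adjusted p = 0.0023), and in UM-SCC-47 16.8 CPM with JQ1, against 337 CPM with DMSO (−4.34 ± 0.12, adjusted p = 5.1e-05). KRT4 had log2 fold changes of 5.49 ± 0.40 and −3.44 ± 0.21 in UPCI-SCC-090 and UM-SCC-47 (adjusted p = 0.0034 and 0.00016), and S100A9 had 4.59 ± 0.74 and −3.49 ± 0.34 (adjusted p = 0.0065 and 0.00063). The differences between the lines passed for KRT13 (9.01 ± 0.41, edgeR's adjusted p = 8.6e-07), KRT4 (9.06 ± 0.53, 8.6e-06) and S100A9 (8.21 ± 0.87, 0.00035). These signs were not confined to suprabasal genes. KRT15, a basal keratin, had 3.37 ± 0.25 in UPCI-SCC-090 and −0.79 ± 0.13 in UM-SCC-47 (edgeR's adjusted p = 0.0037 and 0.0038; difference 4.28 ± 0.35, 8.6e-05). Of 15 basal keratinocyte genes tested, 2 were called higher and 3 lower in UPCI-SCC-090, and 3 higher and 5 lower in UM-SCC-47, beside the same shares of all genes.

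The suprabasal list did not move as a whole. KRT16, a keratin of activated and differentiating keratinocytes, rose in both lines, with log2 fold changes of 6.09 ± 0.29 in UPCI-SCC-090 and 0.81 ± 0.15 in UM-SCC-47 (edgeR's adjusted p = 0.0015 and 0.0061). KRT6C rose in UPCI-SCC-090 (5.74 ± 0.30, adjusted p = 0.0015), although reads of the near-identical KRT6 genes cannot be assigned with certainty. The plakin EVPL, a part of the cornified envelope, fell in both lines (−3.93 ± 0.43 and −1.58 ± 0.16, adjusted p = 0.0038 and 0.00064). KRT17 had −0.14 ± 0.26 in UPCI-SCC-090 (adjusted p = 0.75), where it was 0.61 after GC correction (adjusted p = 0.032), and rose in UM-SCC-47 (2.33 ± 0.20, adjusted p = 0.00039). The calls of KRT13, KRT4, S100A9, KRT16 and EVPL in both lines and of KRT6C in UPCI-SCC-090 held in all 16 alternatives. Among the members, LYPD5 and LY6K had the signs of EVPL and PSCA the signs of CNFN, a cornified envelope gene (1.54 ± 0.36 and 1.504 ± 0.251, adjusted p = 0.021 and 0.0042, the first lost without DMSO replicate 3 or JQ1 replicate 1 of UPCI-SCC-090, with adjusted p up to 0.075).

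**Figure D3:**
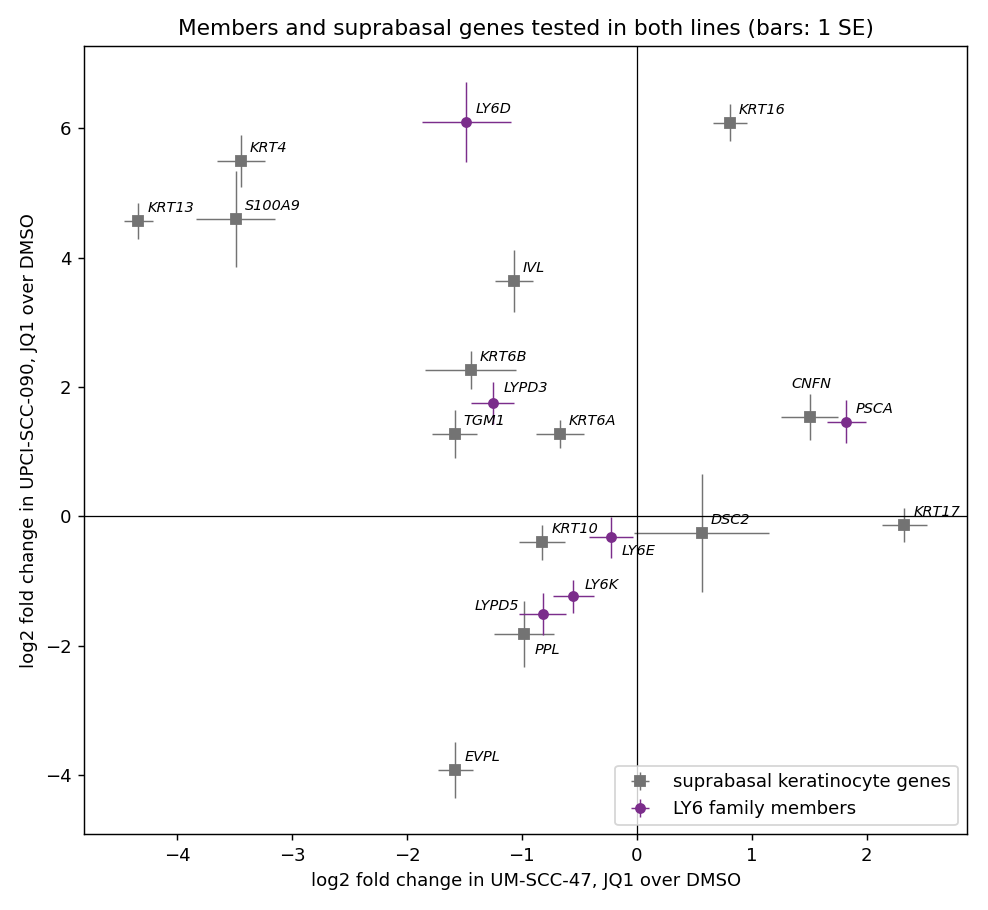
Each point is a gene tested in both lines, with its log2 fold change of JQ1 over DMSO in UM-SCC-47 on the horizontal axis and in UPCI-SCC-090 on the vertical axis, and bars of 1 SE. LY6D and LYPD3 lie at the upper left with KRT13, KRT4 and S100A9, PSCA at the upper right, and LYPD5, LY6K and EVPL at the lower left.

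The members lie in a pair of gene clusters, with coordinates here on GRCh37 from GENCODE 44. PSCA (start 143751726), LY6K, SLURP1, LYNX1, LY6D and LY6E (end 144105249) follow each other at 8q24.3, and LYPD3 (43964939 to 43969760) and LYPD5 (44290026 to 44331358) lie at 19q13.31 on the minus strand. Neighbours in the 8q24.3 cluster did not all have the same direction. PSCA and LY6K, which are next to each other in the table's annotation, had log2 fold changes of 1.46 and −1.24 in UPCI-SCC-090 and 1.83 and −0.55 in UM-SCC-47. THEM6, between LY6K and SLURP1, had 0.19 in UPCI-SCC-090 (edgeR's adjusted p = 0.72, and 0.00096 after GC correction) and rose in UM-SCC-47 (1.04 ± 0.19, adjusted p = 0.0055), and LYPD2, between SLURP1 and LYNX1, fell in UM-SCC-47. On a list of other neighbours at 8q24.3, LYPD2 and THEM6 included, 9 were tested in each line. In UPCI-SCC-090, 1 was called higher and 3 lower, beside 7.67% and 20.4% of all genes. In UM-SCC-47, 5 were called higher and 2 lower, beside 16.1% and 25.5%. The list did not hold every gene tested there, and left out a gene called lower in UM-SCC-47 with a log2 fold change of −2.63. The transcription factor gene MAFA rose in both lines (1.72 ± 0.40 and 2.67 ± 0.45, edgeR's adjusted p = 0.022 and 0.0042), although its call in UPCI-SCC-090 was lost without DMSO replicate 1, 2 or 3 or JQ1 replicate 1, with adjusted p up to 0.069. Rows of the 8q24.3 members overlap antisense genes in the annotation (JRK for PSCA, and long noncoding RNAs for LY6D, LY6E and LY6K), and the sources used here do not say whether the counting used strand.

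**Figure D4:**
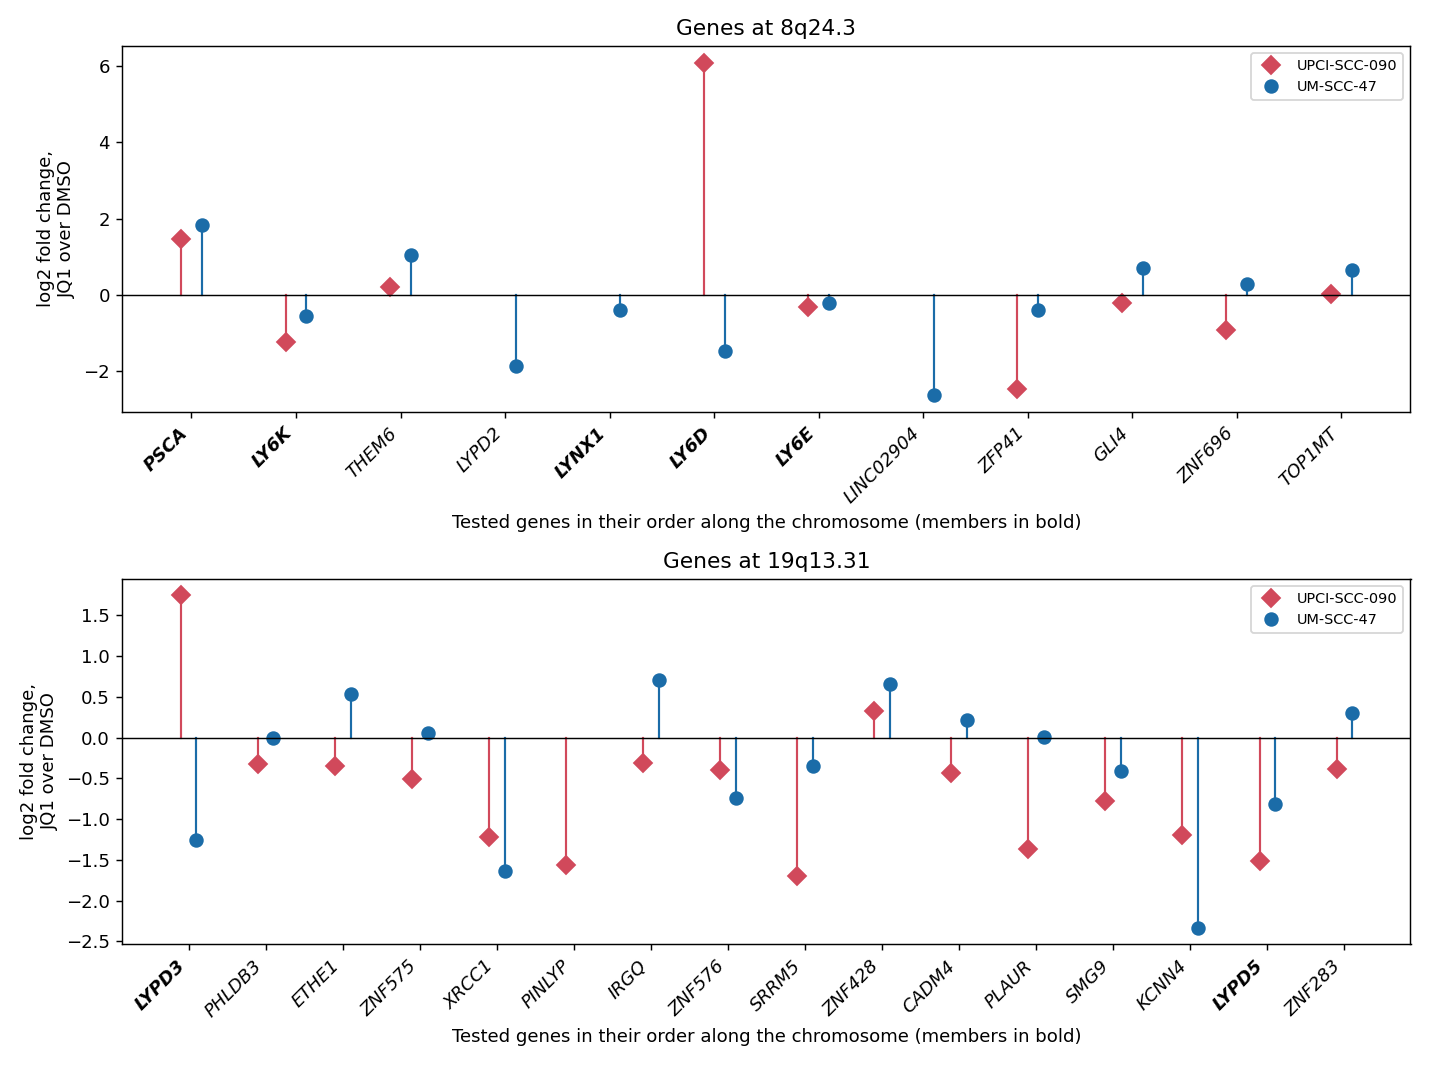
Log2 fold changes of JQ1 over DMSO for the genes tested in the 8q24.3 and 19q13.31 clusters, in chromosome order, with UPCI-SCC-090 in red and UM-SCC-47 in blue and members in bold. At 8q24.3, LY6D stands out in UPCI-SCC-090 at 6.10 between neighbours of lower values, and at 19q13.31 LYPD3 is the gene furthest above 0 in that line at 1.75.

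At 19q13.31, 0 of 16 neighbours tested were called higher by edgeR in UPCI-SCC-090 (0 at an unadjusted p under 0.05 and 0 with DESeq2) and 3 lower. In UM-SCC-47, 2 were called higher and 4 lower. The lower calls include PINLYP in UPCI-SCC-090 and CD177 in UM-SCC-47. Both passed the filter through their DMSO libraries only, and nothing is read from their calls. The shares of all genes were those given for 8q24.3. KCNN4, a potassium channel gene next to LYPD5, had −1.19 in UPCI-SCC-090 (edgeR's adjusted p = 0.052) and fell in UM-SCC-47 (−2.33 ± 0.19, adjusted p = 0.00037). XRCC1, a DNA repair gene between LYPD3 and LYPD5, fell in UPCI-SCC-090 (−1.22 ± 0.30, adjusted p = 0.027, kept in 7 of 16 alternatives and lost without DMSO replicate 2 or 3 or JQ1 replicate 1 or 3, with adjusted p up to 0.35) and in UM-SCC-47 (−1.64 ± 0.15, adjusted p = 0.00051).

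Across the 12 libraries the profiles of the members were compared with 14395 other genes by Pearson's r of log2 CPM, as a description of points that share library and depth. The profile most like LY6D was that of MTERF4 (r = 0.977), followed by RHOV, ASB8, FOS and JUNB. For LYPD3 they were PDPR (0.987), BCL7A, DET1, TMEM39A and UPK3BL1. LY6E was most like UNC93B1 (0.994), LY6K like GFER (0.989), LYPD5 like MED22 (0.995) and LYNX1 like PDLIM4 (0.991). Among the members, r was 0.925 for LY6K and LYPD5, 0.945 for LYNX1 and LY6E, 0.939 for PSCA and LYNX1, and 0.745 for LY6D and LYPD3. LY6E, PSCA and LYNX1 share their higher level in UM-SCC-47.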

How the data were processed

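The deposited table holds estimated counts per gene for the 12 libraries, which the authors made with Salmon from stranded libraries of RNA depleted of ribosomal RNA and did not scale between libraries. Per the submitters' processing notes, the tools were Salmon (version 0.8.2) and DESeq2 (version 1.28.0). Each repeat was run on 2 lanes. The sources used here do not give the transcript index or genome build. Symbols, coordinates, exon lengths and GC content came from GENCODE 44 lifted to GRCh37, in which 20015 of the 20738 gene IDs were found. Salmon divides reads among similar transcripts, so that counts of near-identical genes are uncertain.

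The estimates were rounded and fitted in R 4.3.3 with edgeR 4.0.16. The filter was filterByExpr (minimum count 10, minimum total 15) and the scaling TMM, followed by quasi-likelihood F tests per line for JQ1 over DMSO (6 libraries) and over 12 libraries for the comparison of the lines and for the interaction. The common biological coefficient of variation was 47% in UPCI-SCC-090 and 31.6% in UM-SCC-47. The standard error was taken as the size of the log2 fold change over the root of F. Alternatives were other scalings, no filter, DESeq2 1.42.0, a replicate block, GC correction, a fit of 12 libraries, and leaving out libraries. Replicates differed by more than sampling noise (chi-square per gene 8.68 to 449). Limits from a count of 0 use 3 counts and cover counting error only.

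The members, the gene lists and the rule for naming genes were chosen with earlier results of these data known. By that rule the text could name the members, the testable genes of the LY6/uPAR family, up to 4 called genes per other list and direction with the largest change and at least 1 CPM, and the 5 profiles most like each member, and it gives a part of these. The profiles most like PSCA are not reported here.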

Additional observations from a re-analysis of the deposited data

Results flagged for a closer look

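The JQ1 responses of LY6D and LYPD3 had opposite directions in the lines, with every JQ1 library above every DMSO library in UPCI-SCC-090 and below in UM-SCC-47, and differed by 7.67 ± 0.77 and 3.13 ± 0.46 on the log2 scale. These differences are a description and no calls are drawn from them, since the set was chosen on LY6D. LYPD6B also had all JQ1 libraries above the DMSO libraries in UPCI-SCC-090 and below in UM-SCC-47, with a difference of 1.10 ± 0.36 log2 units that did not pass the interaction test (edgeR adjusted p = 0.11). CD59 rose in both lines and by 1.31 ± 0.29 log2 units more in UPCI-SCC-090 (edgeR adjusted p = 0.021). LYPD2 had a difference of 5.42 ± 0.94 log2 units between the lines. Its DMSO libraries of UPCI-SCC-090 held 0 counts and its JQ1 libraries 4 in all, so it passed the filter through UM-SCC-47 only. LYPD2 could not fall in UPCI-SCC-090, so this difference is a description with no test. Its size depends on the prior count and is no bound.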

How the results depend on the processing

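All alternatives named under the processing were run, and a gene that fell under the filter in one has no value there. Of the member counts, 171 values stayed within 1.5 times and 19 moved. In UM-SCC-47 the 4 members called lower were 2 with the size factors of DESeq2, with DESeq2, with GC correction and replicate block, and without the library of the steepest GC trend, and 1 in the fit of all 12 libraries. They were 1 to 4 when a single library was left out: 1 without any DMSO library or JQ1 replicate 1, 2 without JQ1 replicate 3 and 4 without JQ1 replicate 2. In UPCI-SCC-090 the 2 called lower, LY6K and LYPD5, were 0 with the size factors of DESeq2, with DESeq2 and without the libraries of the steepest GC trends, and 0 to 2 when a single library was left out, with 0 without DMSO replicate 2 or 3 or JQ1 replicate 1 or 3. With DMSO, 1 member was called higher in UPCI-SCC-090 over UM-SCC-47 after GC correction, with or without the replicate block, against 0. The causes were not tested.

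For single named genes 5115 values were counted as unchanged, 309 lost the call, 131 gained it, 25 moved and 4 reversed. Unchanged includes a change of sign where the gene was called in neither fit. For members given as a description, unchanged means a shift within the spread of replicates, and moved a larger shift. Moved values could change sign, such as LY6E in UPCI-SCC-090 (0.69 after GC correction, against −0.32). The reversed values were those of KRT17 (0.61, and 0.59 with the replicate block) and GLI4 (0.869 and 0.873) in UPCI-SCC-090 after GC correction, against −0.14 and −0.21. Over all genes the difference between the lines had 422 higher and 523 lower calls, 1265 and 1455 after GC correction, and 299 and 326 without the libraries of the steepest GC trends. Same-numbered JQ1 and DMSO libraries did not deviate together in every pair (r of −0.15, 0.20 and 0.43 in UM-SCC-47 and of 0.095, 0.79 and 0.21 in UPCI-SCC-090), so the numbers were not taken as pairs. With the replicate block alone the member counts were unchanged (3 higher and 2 lower in UPCI-SCC-090, 1 and 4 in UM-SCC-47, 2 and 0 for the difference, 2 and 3 between the lines with JQ1, 0 and 4 with DMSO). In UPCI-SCC-090 a low level limits LY6D and PSCA with DMSO, LYNX1 and SLURP1, with 0 to 20 counts per library.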
